A study of Homo sapiens with 5 samples.

Results

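The genes described here are 9 transcription factors of the AP-1 and immediate early classes, FOS, FOSB, FOSL1, FOSL2, JUN, JUNB, JUND, MAFF and NR4A2. They were taken by symbol from the gene table of the series, in which all 9 of them were among 12474 genes. The genes were chosen by their measured levels in these libraries, treated against untreated, so every difference in them between treated and untreated cells is given as a description, without a test.

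The cells were MDA-MB-468, a breast cancer line of the triple-negative type with an amplified EGFR gene, which had been infected with a lentiviral library of expressed CloneTracker barcodes and selected with puromycin. Single cells were sequenced with a 3′ Chromium kit after 3, 6 or 9 days in 250 nM afatinib (D3, D6 and D9, 1 library each) and without treatment (D0, replicates 1 and 2). Afatinib binds covalently to the kinase domain of EGFR and ERBB2 and blocks it. Per the study's methods, cells were cryopreserved and revived ahead of droplet capture, and the untreated cells were captured in 2 runs and sequenced in 2 flow cells. Whether the untreated replicates were grown separately is not given in the sources used here, so every p-value below measures the spread between these libraries, which may be technical. The 3 afatinib days served as replicates in the tests, so this spread also holds any difference between days.

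AP-1 is a pair of proteins, one of the FOS family (FOS, FOSB, FOSL1, FOSL2) and one of the JUN family (JUN, JUNB, JUND), or of JUN proteins alone, joined through leucine zippers. The pair binds a palindromic DNA element that is known as the TRE after the phorbol ester that induces it. Many of these genes are immediate early genes: signals such as ERK, JNK, p38 and cyclic AMP switch them on within minutes through factors already present in the cell, and their short-lived RNA then disappears. FOSL1, which encodes FRA1, depends on lasting ERK activity and is known for its high level in triple-negative breast cancer. FOS and FOSB have strong activation domains that FOSL1 and FOSL2 lack, MAFF is a small Maf protein that pairs with CNC factors of the NRF2 class, and NR4A2 is an orphan nuclear receptor that is induced by cyclic AMP and CREB.

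The promoters of the genes are shown first, since cyclic AMP response elements are a sequence feature that the choice of genes did not use. RefSeq promoter windows (GRCh38.p14) were found for 7 of the 9 genes, and FOSL1 and NR4A2 were not among them. Each window is set on a RefSeq start, which need not be the start of the gene span given further on. In the 250 bases before that start, both strands were searched for the TRE (TGANTCA) and the full cyclic AMP response element or CRE (TGACGTCA). The CArG box that SRF binds and the core of the CRE (TGACGT), which lies within the full element, were searched too. The core was added after the sequences had been seen. It was present in 5 of the 7 genes (FOS, FOSB, FOSL2, JUND and, in 1 of its 2 windows, MAFF), while 7.10% of 35116 windows of all genes held it. The full CRE was present in 2 genes, JUND and MAFF, and in 1.65% of all windows. The TRE was found in 0 of the 7 genes (6.57% of all windows) and the CArG box in 0 (1.16%). The bases searched in these genes were 62% (JUN) to 74.8% (JUND) G or C, against a median of 58% over all windows. The core itself holds CG. Genes are set here beside single windows, and base content was not matched, so nothing is read from 5 of 7. The promoters of FOS, FOSB and JUND are printed with that of JUN, which has none of these letters in its window, each 5′ to 3′ on the strand of its gene and with the CRE core or full CRE in capitals on either strand.
FOS, chr14:75278742-75278791, plus strand: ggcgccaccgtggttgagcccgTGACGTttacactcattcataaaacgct
FOSB, chr19:45467914-45467963, plus strand: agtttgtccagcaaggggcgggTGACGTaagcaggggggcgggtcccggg
JUND, chr19:18281682-18281844, minus strand: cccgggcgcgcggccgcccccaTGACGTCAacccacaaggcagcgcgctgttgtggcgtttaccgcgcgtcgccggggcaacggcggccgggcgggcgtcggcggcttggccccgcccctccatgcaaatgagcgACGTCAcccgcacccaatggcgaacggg
JUN, chr1:58784068-58784127, minus strand: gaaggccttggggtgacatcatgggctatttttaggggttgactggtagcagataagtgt
The core began 64 bases before the RefSeq start in FOS, 60 in FOSB, 66 in FOSL2 and 54 in MAFF, and in JUND 200 and 87 bases before it. In FOSL2 (chr2:28392770-28392819) and MAFF (chr22:38201918-38201969) the stretch with the core lies inside the gene span given below. There it overlaps an annotated exon on the same strand. A match of letters is a description of the sequence and not a measured binding site, and where the letters were not found this says nothing of the factor.

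The 5 libraries held 4101 cells, 479, 942 and 1139 at D3, D6 and D9 against 478 and 1063 in the untreated replicates, with 14517579 to 28148379 counts per library. The median cell had 22715, 13862 and 20216 UMIs at D3, D6 and D9, against 45658.5 and 25252 UMIs in untreated replicates 1 and 2. The mitochondrial share of counts was 17.2%, 16.0% and 8.82% at D3, D6 and D9, against 7.25% and 7.80% in untreated libraries. Under 10% mitochondrial counts were found in 85 cells of D3, 188 of D6 and 857 of D9, against 379 and 860 untreated cells, so D3 and D6 stand apart and each level below was also computed in those cells alone. All 6 epithelial markers were detected in every library, with a summed level of 3656 to 4953 CPM in afatinib and 5887 to 5996 CPM in untreated libraries, and ESR1, the estrogen receptor, was at or under 0.324 CPM throughout. Of markers of other cell types, COL1A1 (fibroblast, at most 7.67 CPM) and KDR (endothelial, at most 7.23 CPM) were in the gene table, and 0 of 5 leukocyte markers were. One cell barcode was shared between libraries (1 of 4101 cells).

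The authors made a batch adjustment between the untreated captures, and the deposited counts of these genes had gaps. Unadjusted counts that reach 1 and 3 UMIs in many cells also reach 2. FOSL1, FOSL2, JUNB, JUND and MAFF had 0 cells with 2 UMIs in untreated replicate 1 and in each afatinib library with at least 10 cells at 1 and at 3, but not in untreated replicate 2. For FOS and FOSB this was so in untreated replicate 2 and in no other library. Untreated replicate 1 thus had the same gaps as the afatinib libraries, though the sources used here name no batch for the afatinib ones. Such an adjustment draws the untreated libraries together, so the spread between them may be understated, by an amount that was not measured. Without untreated replicate 2, the log2 fold changes of the 9 genes ran from -3.04 in FOSL1 to 2.58 in NR4A2, and each kept the sign given below.

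Of the 9 factors, FOS, FOSB, JUN, JUND, MAFF and NR4A2 were higher in all 3 afatinib libraries than in both untreated libraries, and FOSL1, FOSL2 and JUNB were lower in all 3. Levels are given as CPM, each library's summed counts scaled to a common total after TMM. Of 12145 genes tested, 31.7% lay above in this way and 26% below, so that 57.7% of all genes did not overlap between the groups, and nothing is read from the 9. All 9 passed the filter on low counts. In cells under 10% mitochondrial counts 8 of the 9 held their place, while MAFF overlapped, with 12.8 CPM at D9 against 13.0 and 12.3 CPM in untreated cells. With summed libraries alone, fewer cells that hold a transcript and less of it per cell cannot be told apart, so shares of cells are given further on.

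**Figure D1:**
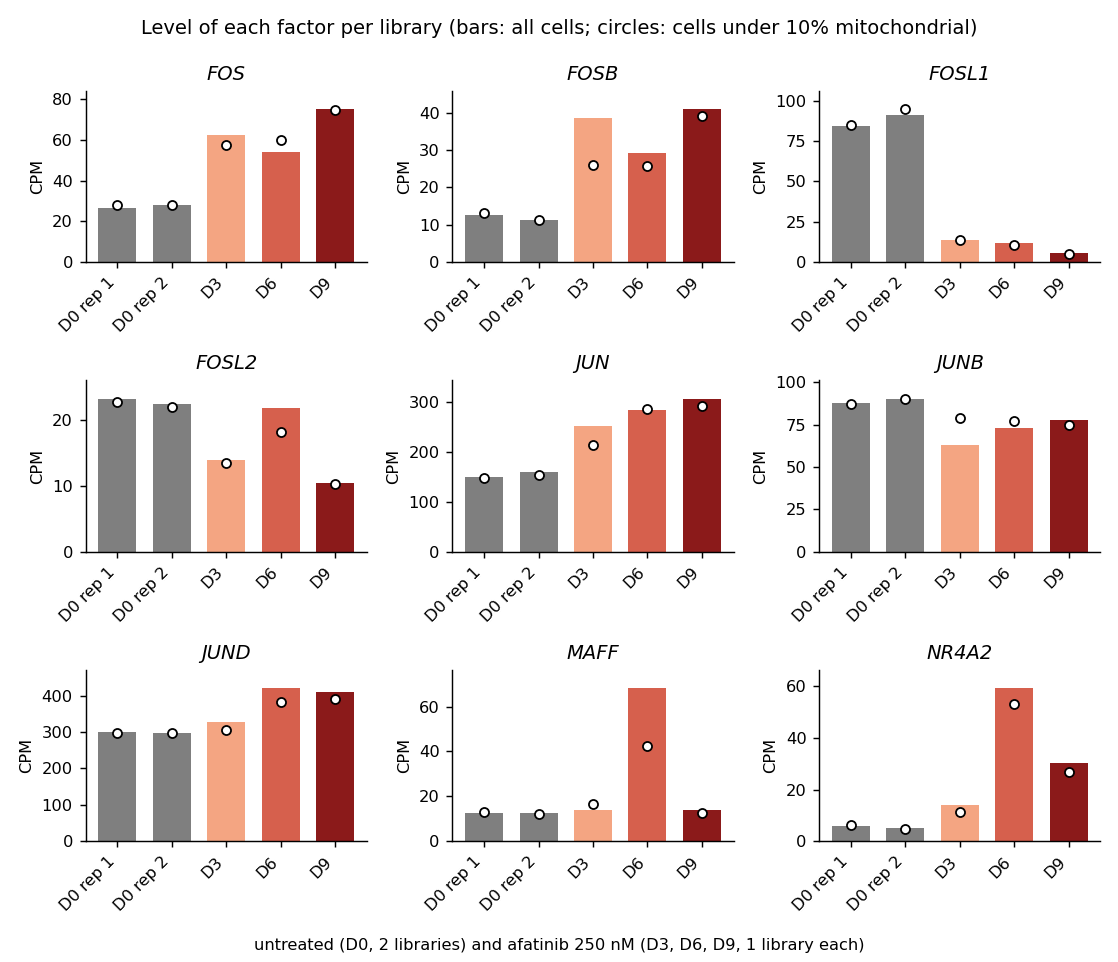
Level of each of the 9 factors in CPM (y axis from 0, own scale per gene) in the 2 untreated libraries (grey) and in afatinib libraries of D3, D6 and D9 (light to dark red). Bars are all cells and circles are cells under 10% mitochondrial counts, where MAFF at D6 stands at 42.4 instead of 68.1 CPM.

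Within the FOS family, FOSL1 went one way and FOS and FOSB the other. FOSL1 (chr11:65892049-65900573, minus strand) stood at 13.5, 11.8 and 5.63 CPM on D3, D6 and D9 of afatinib, against 84.2 and 91.3 CPM in untreated cells. All 3 afatinib libraries were far below both untreated ones, and D9 was the lowest. The log2 fold change was -3.10 ± 0.32 (SE, 3 afatinib and 2 untreated libraries), and with D9 as the only afatinib library it was -4.02. The share of all genes with a lower ratio to untreated cells was 0.107% on D3, 0.239% on D6 and 0.132% on D9, in a gene that was chosen by such levels.

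FOS (chr14:75278826-75282230, plus strand) stood at 62.2, 54.2 and 75.2 CPM on D3, D6 and D9, against 26.6 and 28.2 CPM in untreated cells, a log2 fold change of 1.22 ± 0.18. FOSB (chr19:45467995-45475179, plus strand), the closest relative of FOS, stood at 38.5, 29.2 and 41.0 CPM, against 12.6 and 11.2 CPM in untreated cells, a log2 fold change of 1.61 ± 0.19. In both genes D6 was the lowest of the treated days and D9 the highest, and no treated library reached down to the untreated level. The level of FOSB in cells under 10% mitochondrial counts was 26.0, 25.8 and 39.2 CPM on D3, D6 and D9, against 13.1 and 11.4 CPM in untreated cells, so that the log2 fold change was 1.34 there. FOS in those cells stood at 57.5, 60.0 and 74.7 CPM in afatinib libraries, against 27.9 and 28.0 CPM in untreated ones.

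FOSL2 (chr2:28392448-28417317, plus strand), which encodes FRA2, stood at 13.9, 21.8 and 10.4 CPM on D3, D6 and D9, against 23.3 and 22.4 CPM in untreated cells. The D6 library came close to the untreated level while D3 and D9 lay well below it, and the log2 fold change was -0.58 ± 0.28. It was -1.20 with D9 alone as the afatinib library, and -0.93 to -0.35 as each library was left out in turn.

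The make-up of the family's transcripts differed accordingly. FOSL1 held 10.6%, 10.1% and 4.26% of the FOS family UMIs at D3, D6 and D9, against 57.4% and 59.7% in untreated cells. FOS held 48.5%, 46.3% and 56.9% of them in afatinib libraries, against 18.1% and 18.4%, and FOSB 30.1%, 25.0% and 31.0%, against 8.61% and 7.31%. The widest exact binomial 95% interval of these shares was that of FOS at D6, 44% to 48.6%, which covers counting error only. The summed level of the 4 genes was 128, 117 and 132 CPM on D3, D6 and D9, against 147 and 153 CPM in untreated cells, so the total was a little lower in each afatinib library while its largest component was another gene. UMIs of a 3′ kit count captured transcript ends and are not scaled for length, and they say nothing of protein.

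**Figure D2:**
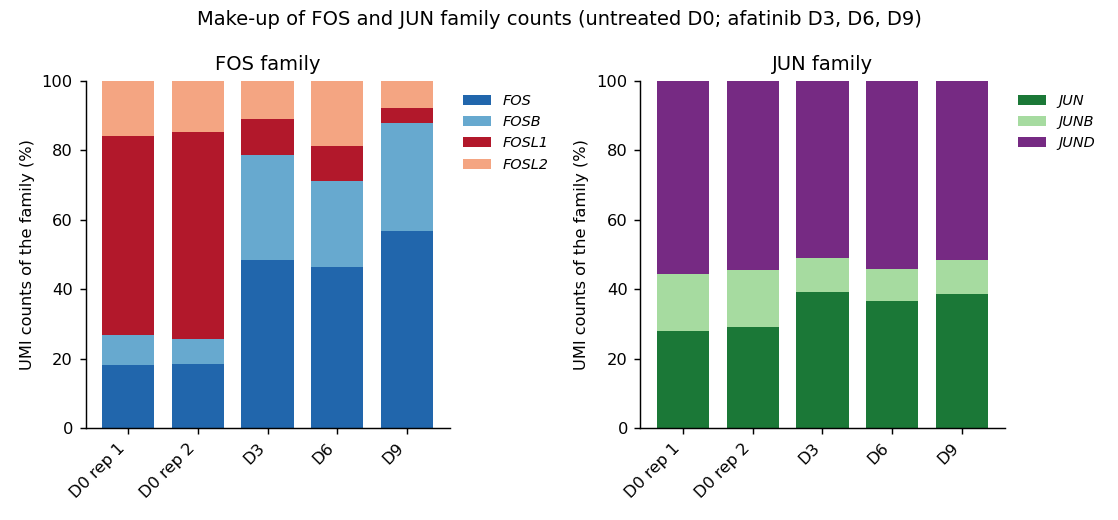
Percentage of the UMI counts of the FOS family (left) and of the JUN family (right) that each gene held, per library (untreated D0 replicates 1 and 2, then afatinib D3, D6 and D9). The FOSL1 segment is 4.26% to 10.6% of FOS family counts in afatinib libraries and 57.4% and 59.7% in untreated libraries, while the JUND segment stays between 51.0% and 55.7% of JUN family counts.

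In the JUN family the differences were smaller. JUN (chr1:58776845-58784048, minus strand), the main transforming JUN protein, stood at 251, 284 and 306 CPM on D3, D6 and D9, against 150 and 159 CPM in untreated cells, and the log2 fold change was 0.86 ± 0.17. Over all cells, every afatinib library was at least 1.62 times the untreated mean. In cells under 10% mitochondrial counts JUN stood at 214, 286 and 291 CPM, against 147 and 154 CPM, so D3 lay closer to untreated cells there. JUND (chr19:18279694-18281622, minus strand), a JUN protein that resting cells already hold, stood at 326, 420 and 410 CPM, against 299 and 298 CPM, a log2 fold change of 0.37 ± 0.19. At D3 JUND lay 1.09 times above the untreated mean, and in cells under 10% mitochondrial counts it was 306 CPM, against 297 CPM in both untreated replicates. JUNB (chr19:12791486-12793315, plus strand), which can hold back JUN activity, stood at 62.9, 73.0 and 78.0 CPM, against 88.0 and 90.0 CPM in untreated cells. Its log2 fold change was -0.32 ± 0.15, it was -0.49 when each cell was thinned to 5000 UMIs, and JUNB reached 79.0 CPM at D3 in cells under 10% mitochondrial counts, against 87.2 and 90.3 CPM. Of the JUN family UMIs, JUNB held 9.82%, 9.39% and 9.82% at D3, D6 and D9, against 16.4% in both untreated libraries, and JUN 39.2%, 36.6% and 38.6%, against 27.9% and 29.1%.

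MAFF and NR4A2 were marked by the D6 library. MAFF (chr22:38200767-38216507, plus strand) stood at 13.8, 68.1 and 13.8 CPM on D3, D6 and D9, against 12.7 and 12.4 CPM in untreated cells. A single library thus carries its log2 fold change of 1.34 ± 0.68, which was 0.13 without D6. The D6 level of MAFF was 4.92 times the mean of D3 and D9, and MAFF was the only one of the 9 factors at least 2-fold above the other 4 libraries at D6, as 0.189% of all genes were. In cells under 10% mitochondrial counts MAFF at D6 was 42.4 CPM, against 12.3 to 16.8 CPM in the other libraries, so the D6 excess was smaller there and still present. NR4A2 (chr2:156324437-156342348, minus strand) stood at 14.1, 59.2 and 30.3 CPM on D3, D6 and D9, against 5.78 and 4.99 CPM in untreated cells. All treated days were above both untreated libraries, with D6 at 2.67 times the mean of D3 and D9, and the log2 fold change was 2.68 ± 0.55. In cells under 10% mitochondrial counts NR4A2 was 11.4, 53.3 and 27.0 CPM in afatinib libraries, against 6.24 and 4.78 CPM in untreated ones. The share of all genes with a higher D6 ratio than NR4A2 was 0.0247%. Such shares are a description, because the genes were chosen by levels of this kind.

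By day, the log2 ratio to the mean of the untreated libraries (with 1 CPM added to each level) was at least 1 for 3 of the 9 factors at D3 (FOS, FOSB and NR4A2), for 3 at D6 (FOSB, MAFF and NR4A2) and for 3 at D9 (FOS, FOSB and NR4A2). The same held for 4.12%, 4.78% and 3.58% of all genes at D3, D6 and D9. It was -1 or less for FOSL1 at D3 and D6 and for FOSL1 and FOSL2 at D9, against 3.16%, 4.53% and 5.96% of all genes. Because the 9 genes were chosen by such differences, nothing is read from these counts.

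The D6 excess was also seen in other immediate early genes. Of 25 tested genes of a list of such genes without the 9 factors, 17 (68%) were higher at D6 than at D3 and D9, and so were 28.3% of all genes tested. In cells under 10% mitochondrial counts the numbers were 16 of 25 (64%) and 29.3%. The list was chosen with earlier results of these data known. Over all cells, D6 was the highest of the 5 libraries in 13 of the 25 (52%), as in 20.8% of all genes. EGR1 at D6, with 16.8 CPM, was below both untreated libraries (22.1 and 23.2 CPM). Of the 9 factors, 4 were higher at D6 than at D3 and D9 (FOSL2, JUND, MAFF and NR4A2), and 3 in cells under 10% mitochondrial counts. Over all cells, D6 was the highest of the 5 libraries in 3 of these 4, and FOSL2 at D6 was below both untreated libraries. Other genes with a large D6 excess were CSRNP1, a nuclear factor induced by AXIN1, at 5.67, 13.8 and 5.10 CPM on D3, D6 and D9, against 5.09 and 4.88 CPM in untreated cells, NR4A1, the closest relative of NR4A2, at 14.9, 32.5 and 15.8 CPM on D3, D6 and D9, against 6.25 and 7.36 CPM in untreated cells, and IER3, an inhibitor of cell death, at 838, 2013 and 1283 CPM, against 984 and 962 CPM. FOS and FOSB did not share it, with D6 at 0.789 and 0.735 times the mean of D3 and D9. Each treated day was 1 library, so a day and its library cannot be told apart.

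**Figure D3:**
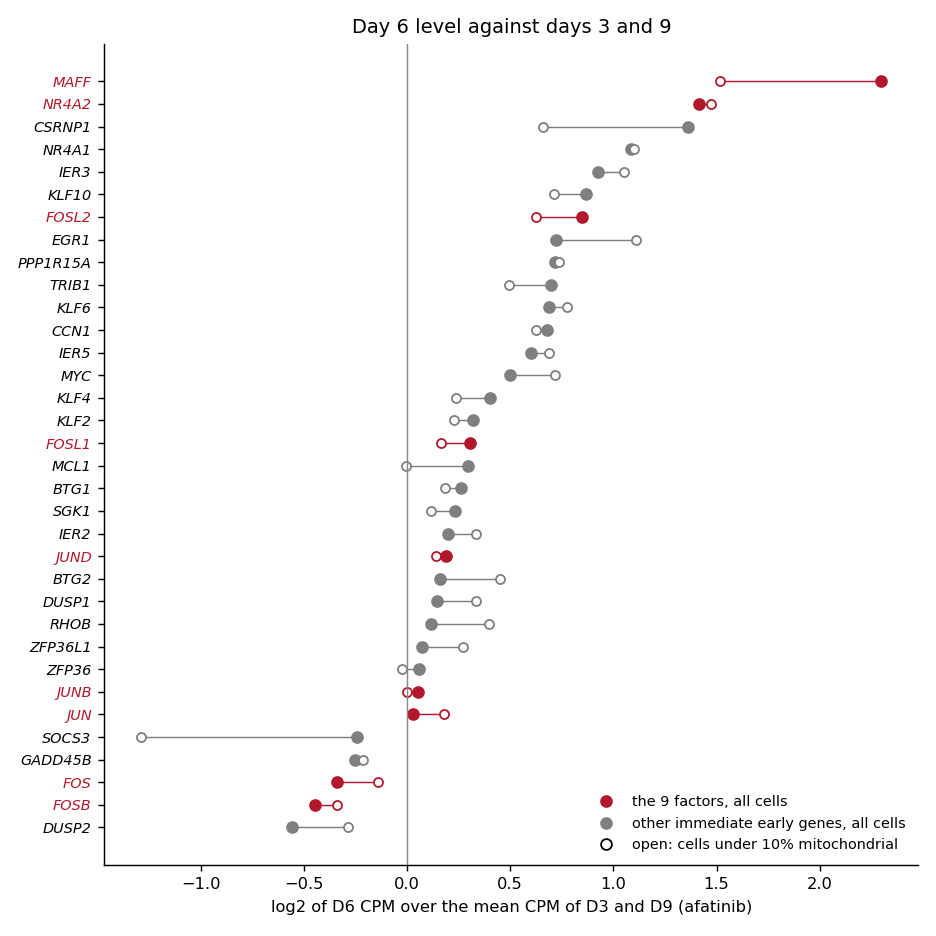
Log2 ratio of the D6 level to the mean of the D3 and D9 levels in afatinib libraries (x axis) for the 9 factors (red) and for 25 other immediate early genes (grey). Filled points are all cells and open points are cells under 10% mitochondrial counts; MAFF is at 2.30 in all cells and 1.52 in low-mitochondrial cells, NR4A2 at 1.41 and 1.47, and FOS and FOSB lie below 0 in both.

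Shares of cells were compared after each cell had been thinned to 5000 UMIs, because the libraries differed in depth. FOS was detected in 25.3%, 22.6% and 29.5% of cells at D3, D6 and D9, against 11.1% and 12.2% of untreated cells. FOSB was detected in 17.1%, 14.4% and 16.9% of cells, against 6.28% and 5.08%, and NR4A2 in 7.72%, 22.9% and 14.7%, against 2.30% and 2.07%. For each of these 3 genes the shares of all afatinib libraries were above those of both untreated libraries. In cells under 10% mitochondrial counts the FOS shares were 22.4%, 25% and 30.2% at D3, D6 and D9, against 11.3% and 12.4% in untreated libraries. FOSB was found there in 10.6%, 11.2% and 15.8%, against 6.33% and 5.00%, and NR4A2 in 8.24%, 21.3% and 13.1%, against 2.64% and 1.86%. The order was thus kept, while the D3 intervals, from 85 cells, were wide (14.0% to 32.7% for FOS, 4.96% to 19.2% for FOSB and 3.38% to 16.2% for NR4A2) and reached into those of untreated replicate 1 (8.33% to 15%, 4.1% to 9.28% and 1.27% to 4.8%), as did that of FOSB at D6 (7.05% to 16.6%). FOSL1 was found in 5.43%, 5.94% and 2.55% of treated cells, against 25.7% and 29.4% of untreated cells. JUN was found in 68.9%, 68.4% and 76.2% of cells, against 52.5% and 48.6%, and JUND in 82.9%, 86.4% and 88.3%, against 73.4% and 70.6%. JUNB was found in 26.7%, 25.6% and 28.8%, against 33.3% and 35.4%. MAFF was found in 27.5% of cells at D6 (95% interval 24.7% to 30.5%) but in 8.35% at D3 and 7.2% at D9, against 4.81% and 6.77% of untreated cells. FOSL2 was found in 7.31%, 12% and 5.00%, against 12.1% and 10.2%, so its D6 share lay between those of the untreated replicates.

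At full depth the shares are larger and depend on the UMIs per cell. FOSL1 was then found in 20.3%, 14.0% and 8.78% of cells at D3, D6 and D9, against 69.0% and 65.9% of untreated cells, and FOS in 58.0%, 44.5% and 62.8%, against 51.5% and 33.4%. FOSB was found in 49.7%, 31.2% and 47.6%, against 29.1% and 15.1%, and NR4A2 in 31.7%, 45.2% and 37.8%, against 18.6% and 10.2%. MAFF was found in 24.4%, 50.4% and 19.8%, against 30.3% and 22.4%, and FOSL2 in 27.6%, 26.3% and 17.4%, against 47.7% and 37.0%. JUN was found in 92.1%, 88.6% and 94.7%, against 95.2% and 84.3%, JUNB in 63.7%, 54.0% and 64.4%, against 86.0% and 78.7%, and JUND in 97.5% to 98.7% of cells of every library. The full-depth shares of FOS, JUN, JUND and MAFF overlapped between treated and untreated libraries. All cells were of 1 line, so the share that free RNA gives in cells without these transcripts could not be measured.

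**Figure D4:**
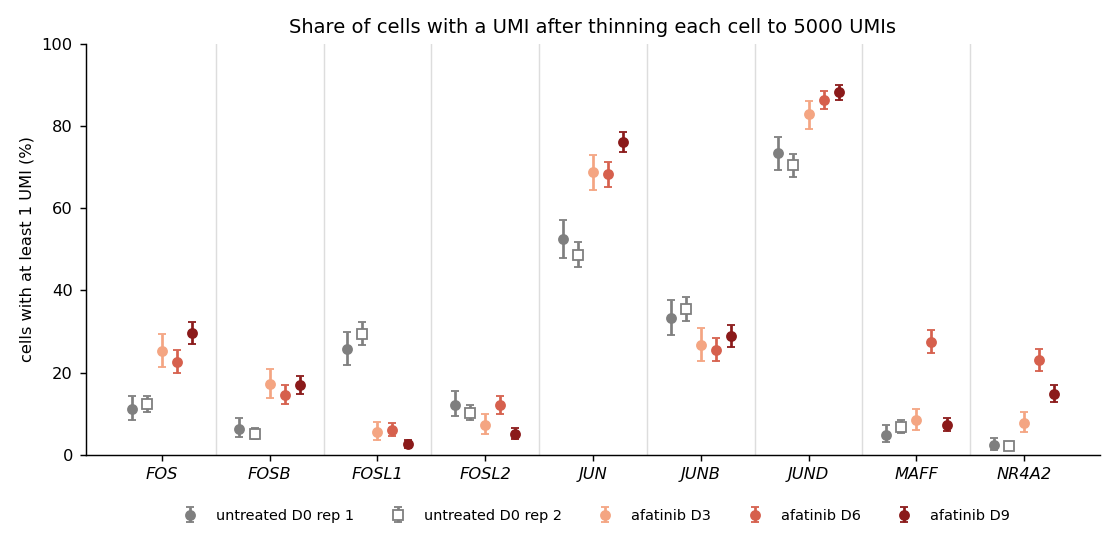
Percentage of cells with at least 1 UMI of each factor after every cell was thinned to 5000 UMIs, in untreated libraries (grey) and afatinib libraries (D3, D6 and D9, light to dark red). Bars are exact binomial 95% intervals, which cover counting error only; FOSL1 lies at 2.55% to 5.94% of afatinib cells and at 25.7% and 29.4% of untreated cells.

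Among cells with the transcript, the thinned mean of FOSL1 was 1.27, 1.13 and 1.17 UMIs at D3, D6 and D9, against 1.41 and 1.37 UMIs in untreated cells, and that of JUN 2.26, 2.15 and 2.15 UMIs, against 1.58 and 1.66 UMIs. For NR4A2 the mean was 1.11, 1.53 and 1.18 UMIs in the libraries of D3, D6 and D9, against 1.09 and 1.05 UMIs in untreated cells. At D6, 6.90% of cells held 2 or more thinned NR4A2 UMIs, against 0.209% and 0.0941% of untreated cells. The MAFF share at D6 was 17.0% in cells under 10% mitochondrial counts (95% interval 11.9% to 23.2%), where NR4A2 was found in 21.3%. In D3 cells under that limit JUN was found in 52.9% (95% interval 41.8% to 63.9%, 85 cells), against 51.7% and 46.4% in such untreated cells, and in 68.1% at D6 and 75.8% at D9.

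The rest of the AP-1 network was read from 7 lists of other genes, chosen with earlier results of these data known, with edgeR's quasi-likelihood test over all 12145 genes. In that test 13.1% of all genes were called higher and 10.1% lower at an adjusted p under 0.05, and the median log2 fold change of all genes was 0.05. The lists held 38 called genes in all, 10 higher and 28 lower.

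Of 9 tested partners of the bZIP class, 3 rose (33.3%) and 1 fell (11.1%), with a median of 0.54, where 13.1% of all genes rose and 10.1% fell. JDP2, which represses AP-1 sites, rose by 0.82 (edgeR adjusted p = 0.00798) and ATF2, a partner of JUN on cyclic AMP elements, by 0.74 (0.0102), while BATF3, at 1.59 to 2.20 CPM in afatinib libraries against 3.75 and 3.98 CPM in untreated ones, fell by 1.01 (edgeR adjusted p = 0.0263). Of 19 kinases and factors upstream of AP-1 genes, 1 rose and 0 fell (median 0.04). It was MAP2K7, a kinase that activates JNK, at 43.3, 47.5 and 37.4 CPM, against 24.9 and 24.4 CPM (log2 fold change 0.79, edgeR adjusted p = 0.0116). In cells under 10% mitochondrial counts the log2 fold change of MAP2K7 was smaller, at 0.43.

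Many outputs of ERK and targets of AP-1 fell. Of 15 tested ERK output genes, 8 fell and 1 rose (median -0.67). SPRY2, a feedback inhibitor of receptor kinases, stood at 59.7, 58.3 and 39.3 CPM on D3, D6 and D9, against 118 CPM in both untreated libraries (log2 fold change -1.18, edgeR adjusted p = 0.00813). PHLDA1, a feedback gene of receptor kinases, fell by 0.91 (edgeR adjusted p = 0.0117), and the ERK phosphatases DUSP4, DUSP5 and DUSP6 by 1.30, 1.57 and 1.15. Of 16 tested AP-1 target genes, 9 fell and 0 rose (median -0.91). INHBA, a subunit of activin, stood at 11.7, 4.47 and 1.67 CPM, against 55.7 and 58.8 CPM (log2 fold change -3.32, edgeR adjusted p = 0.00916). PLAUR, the receptor of urokinase, stood at 22, 16.9 and 16.2 CPM, against 52.4 and 51.4 CPM (-1.50, edgeR adjusted p = 0.00227). The integrin subunit ITGB4 and the protease inhibitor TIMP1 fell by 1.11 and 0.98 (edgeR adjusted p = 0.0108 and 0.0244). The others that fell were AREG, CD44, F3, PLAU and UPP1, of which the EGFR ligand AREG was at 3.09, 1.76 and 1.22 CPM in afatinib libraries, against 36.7 and 28.2 CPM in untreated ones. The targets thus included 9 lower genes beside a lower FOSL1 and higher FOS, FOSB and JUN, and whether these differences are linked was not tested.

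Of 25 tested immediate early genes, 4 rose (16%) and 3 fell (12%), shares near those of all genes (13.1% and 10.1%), with a median of 0.45. DUSP1, a phosphatase of JNK, p38 and ERK, stood at 24.5, 44.7 and 56.5 CPM on D3, D6 and D9, against 10.2 and 11 CPM in untreated cells (log2 fold change 1.98, edgeR adjusted p = 0.00779). IER5, a regulator of heat shock factor, rose by 1.08 (edgeR adjusted p = 0.015), as did KLF2 and NR4A1 by 2.06 and 1.62. BTG1, a restraint on proliferation, fell by 0.58 (edgeR adjusted p = 0.0434), and so did EGR1, an ERK-induced zinc finger factor, by 0.88 and the kinase SGK1 by 0.90. Of 7 tested CREB targets 3 rose and 0 fell (median 1.48), and these were DUSP1 and NR4A1, which are also on the immediate early list, and the clock gene PER2 (1.48). Of 13 tested heat shock and thaw stress genes, 7 fell and 0 rose (median -0.60). The 6 not called included HSPA1A and HSPA1B, with log2 fold changes of -0.05 and 0.04. HSPB1 stood at 73.8, 38.6 and 40.7 CPM, against 229 and 243 CPM in untreated cells (log2 fold change -2.21, edgeR adjusted p = 0.00337), and the chaperones HSPE1, HSPD1 and DNAJA1 fell by 0.98, 0.79 and 0.71 (edgeR adjusted p = 0.0109, 0.0243 and 0.0181).

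These calls rest on both untreated libraries. Of the 38 called genes, 6 stayed past the threshold without untreated replicate 1 and 5 without untreated replicate 2. PLAUR, AREG, PER2 and HSPB1 were among them in both cases, and INHBA without untreated replicate 1 alone. Without D3, 25 of the 38 stayed, without D6 29, and without D9 38. With each cell thinned to equal depth, 28 of the 38 stayed. Of the called ERK output genes 4 of 9 stayed there, and of the called AP-1 target genes 8 of 9. PHLDA1 was among the ERK output genes lost, with a log2 fold change of -0.58, against -0.91 at full depth. Among cells under 10% mitochondrial counts 29 of the 38 stayed. The 9 lost in those cells were BATF3, EGR1, BTG1, SPRED1, ETV4, PLAU, HSPH1, HSPE1 and DNAJB1, all with the same sign. Some log2 fold changes were about as large there (-0.99 in BATF3 and -0.56 in ETV4, against -1.01 and -0.54 over all cells) and others smaller (-0.70 in HSPE1 and -0.44 in HSPH1, against -0.98 and -0.63).

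**Figure D5:**
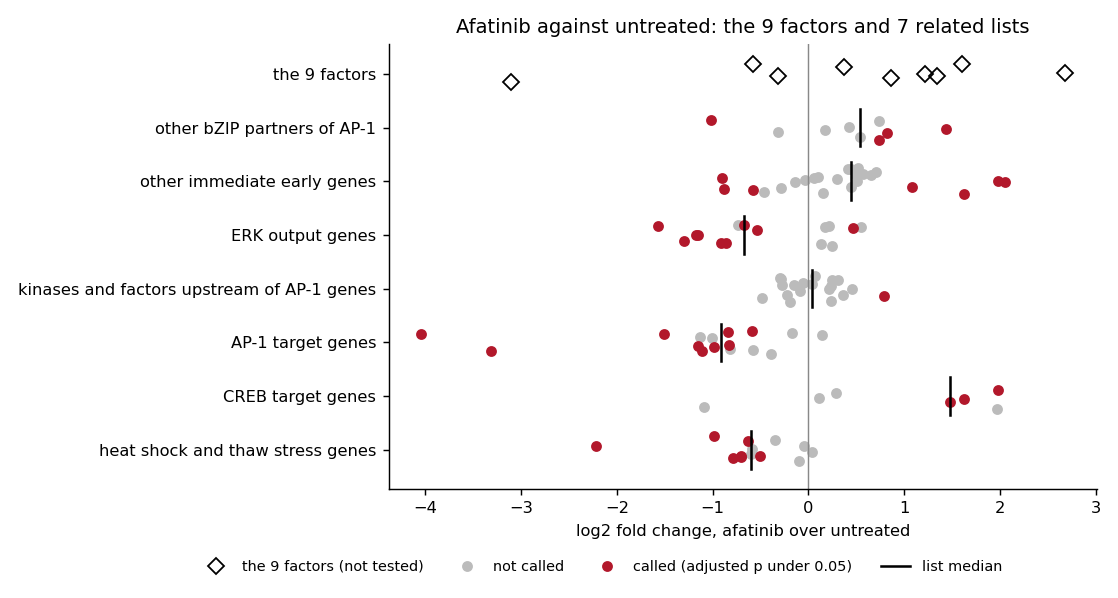
Log2 fold change of afatinib over untreated libraries (x axis) for the 9 factors (open diamonds, not tested) and for the tested genes of 7 lists, with red points for genes called by edgeR at an adjusted p under 0.05, grey points for genes not called, and a bar at each list median. List medians run from -0.91 for AP-1 target genes to 1.48 for CREB target genes.

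Afatinib's own targets are given as background. EGFR stood at 885, 827 and 564 CPM on D3, D6 and D9, against 887 and 920 CPM in untreated cells (log2 fold change -0.25 ± 0.24), and ERBB2 at 24.2, 24.4 and 23.6 CPM, against 13.9 and 12.9 CPM (0.85 ± 0.13).

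From cell to cell, the 9 factors varied together only weakly. Pearson's r over cells was taken for each of the 36 pairs within each library, on log1p of counts thinned to 5000 UMIs, and the median r was 0.08, 0.06 and 0.04 at D3, D6 and D9, against 0.02 and 0.04 in untreated replicates 1 and 2. In cells under 10% mitochondrial counts the median r was 0.13, 0.01 and 0.03 at D3, D6 and D9, against -0.00055 and 0.03 in untreated cells, with 18 of 36 pairs above 0 at D6. Points of 1 library share its source and depth, and in counts this sparse such values are no finding. The pair with the highest mean r was FOSB and JUN, at 0.17, 0.10 and 0.13 in afatinib libraries, against 0.18 and 0.11 in untreated ones. FOS and FOSB had the highest single value of any pair, 0.25 at D3, with 0.09 at D6 and 0.10 at D9, against -0.04 and 0.07 in untreated cells. At D3, 7.72% of cells held both of them, and 4.32% would do so if the shares were independent. FOSL1 and FOS had the lowest mean, with -0.03, -0.04 and 0.03 at D3, D6 and D9, against -0.10 and -0.06 in untreated cells. MAFF and NR4A2, the D6 genes, had r of 0.18 at D6, when 8.6% of cells held both and 6.30% would if independent.

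Against lists of other genes, JUN had its highest r with the other immediate early genes in every library. Its r with the mean of the 26 genes of that list in the gene table was 0.32, 0.28 and 0.20 at D3, D6 and D9, against 0.16 and 0.26 in untreated cells. That of NR4A2 was 0.05, 0.29 and 0.19, against 0.05 and 0.06. FOSL1 had r of 0.13, 0.11 and 0.05 with the AP-1 target list in afatinib libraries, against 0.17 and 0.25 in untreated ones, where FOSL1 was most often detected. Depth and RNA quality moved with some of these. JUN at D3 had r of 0.18 with the mitochondrial share and -0.21 with log total UMIs, FOSB at D3 0.16 with the mitochondrial share and MAFF at D6 0.15. FOSL1 in untreated replicates 1 and 2 had r of 0.12 and 0.18 with log total UMIs and -0.09 and -0.13 with the mitochondrial share. The part of depth and RNA quality in the co-variation was not tested.

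Among the 5 genes most like FOS over cells, by mean r over the 5 libraries among 5037 genes found in at least 10% of thinned cells of each library, were ELF3, an epithelial ETS factor, SERTAD2, IER3 and IER2, with mean r of 0.06 to 0.07. Their lowest r in a single library was 0.035, 0.00047, -0.0014 and -0.022. Values this small at the top of 5037 ranked genes are no finding. Those most like FOSL1 over the 2 untreated libraries, among 5581 genes, were TNFRSF12A, the receptor of TWEAK, the metallothioneins MT1E and MT2A, VIM, the mesenchymal filament protein vimentin, and FHL2, a LIM-domain cofactor, with mean r of 0.16 to 0.21. For TNFRSF12A the values were 0.25 and 0.17 in untreated replicates 1 and 2. FOSL1 itself varied with depth and the mitochondrial share there, as given above, and the part of these was not tested.

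Some of the genes overlap others in GENCODE v44. FOSB overlaps ERCC1, JUNB overlaps HOOK2, MAFF overlaps PLA2G6 and FOSL2 overlaps FOSL2-AS1, each on the other strand, and FOSL2 also overlaps a noncoding gene on its own strand. The sources used here do not say whether counting used strand, so reads of these 4 genes and of their partners may not be fully separated.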

How the data were processed

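Single-cell RNA was sequenced from 3 afatinib libraries and 2 untreated libraries. Per the submitters' processing notes, Cell Ranger 6.1.2 and the GRCh38 build were used. The authors removed cells with few UMIs, outlying mitochondrial shares and putative doublets, adjusted D0 for its 2 captures with ComBat-seq and dropped genes of low expression. The deposited matrix thus holds expected counts, UMI counts after that adjustment, all of them whole numbers. A test for unadjusted counts had been planned and was kept. The smallest cell held 5124 UMIs, and thinning to 5000 lost 0 cells. The other deposited columns hold cell names, gene identifiers and symbols.

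Counts were summed per library and tested with edgeR 4.0.16 (quasi-likelihood test, TMM, filterByExpr, Benjamini-Hochberg), with limma 3.58.1 (voom) and DESeq2 1.42.0 as alternatives. The 3 afatinib days served as replicates, which left 3 residual degrees of freedom. The tests were tried on simulated data. Further alternatives were no count filter, leaving out mitochondrially encoded and ribosomal protein genes, thinned cells, cells under 10% mitochondrial counts, and leaving out each library. Leaving out D3 and D6 together was chosen after seeing the data. The 9 factors and all lists were chosen with earlier results of these data known. Named list genes were the up to 4 called genes of each list with the largest changes at a mean of 20 CPM or more. AREG, BATF3, DUSP4 to DUSP6, KLF2, NR4A1, PER2, EGR1, SGK1, IER3 and CSRNP1 were named after their values were seen. So were SPRED1, ETV4, HSPH1, DNAJB1, HSPA1A, HSPA1B and the remaining AP-1 targets. A few genes that the rules pick are not reported here. Exact binomial 95% intervals cover counting error only.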

Additional observations from a re-analysis of the deposited data

How the results depend on the processing

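The 9 factors kept their sign under every alternative run. Their log2 fold changes as each library was left out ran from -3.35 to -2.79 for FOSL1, -0.93 to -0.35 for FOSL2, 1.09 to 1.31 for FOS, 1.51 to 1.73 for FOSB, 0.79 to 0.93 for JUN, -0.39 to -0.24 for JUNB, 0.29 to 0.47 for JUND, 0.13 to 1.71 for MAFF and 2.05 to 3.05 for NR4A2. Beyond the spread between libraries moved JUNB with thinned cells (-0.49), FOSB in cells under 10% mitochondrial counts (1.34) and MAFF without D6 (0.13). With D9 as the only afatinib library FOSL1 was -4.02, FOSL2 -1.20 and MAFF 0.082. Calls of all genes were 1590 higher and 1229 lower, a share of 56.4% higher, and 46.2% of the calls (1280 and 1490) were higher without mitochondrially encoded and ribosomal protein genes. They were 708 and 789 with thinned cells and 3257 and 3471 without D3 and D6, and ran from 100 to 3504 higher and from 139 to 3313 lower as each library was left out. List calls (10 higher, 28 lower) ran from 2 to 25 higher and from 3 to 39 lower in the same way, and were 23 and 48 without D3 and D6. The median of the pair correlations, averaged over libraries, was 0.05, and 0.10 without thinning. The causes were not tested. No paired analysis was possible because only the untreated libraries carry replicate numbers. Without an untreated replicate, the lone one is assumed to vary like the afatinib libraries. The design has 1 library per treated day, and low levels such as that of NR4A2 in untreated cells (125 and 133 counts) limit precision.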
